A study of Mus musculus with 38 samples.

Results

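The acetylated regions described here carried a peak of H3K27ac in mouse fibroblasts given SALL4-delN12 and no peak of H3K27ac or SALL4 in cells given SALL4-WT. They are the H3K27ac peaks of the SALL4-delN12 cells with a score of at least 100 that share no base with a peak of H3K27ac or of SALL4 in the SALL4-WT cells. The score is the one MACS gives each peak, and it is higher where the p-value of the peak is lower. Of 29472 SALL4-delN12 H3K27ac peaks at this score, 3934 met the rule (13.3%). The deposited SALL4-WT H3K27ac list was much shorter, with 19841 peaks against 45599, so that a missing SALL4-WT peak and a shallower SALL4-WT library cannot be told apart. The regions were chosen by their H3K27ac score and by the missing SALL4-WT peaks, so both are a description and not a finding.

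The study of 38 samples follows mouse cells towards primitive endoderm (PrE), the extraembryonic endoderm of the blastocyst. The samples used here come from mouse embryonic fibroblasts (MEFs) of OG2 and 129S4/SvJaeJ parents at E13.5. Apart from the MEF ATAC-seq library, whose label names no factor, the cells received 1 factor, SALL4-WT or SALL4-delN12, by retrovirus. The cells given a factor grew in iCD3 medium without BMP4. Chromatin accessibility was measured by ATAC-seq in MEFs and in both groups at days 1, 5, 9 and 11, and RNA by RNA-seq at the same 4 days. SALL4 and H3K27ac were measured by CUT&Tag at day 6, with replicates merged before peaks were called. ATAC-seq and CUT&Tag libraries were made from 100000 cells each. Each library is a bulk average of its culture. All 20 genes of a fibroblast list had an FPKM of at least 1 with SALL4-WT, with SALL4-delN12 or with both at each of the 4 days.

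H3K27ac is the acetylation of lysine 27 of histone H3, which marks active promoters and enhancers. SALL4 is a zinc finger transcription factor of early embryos, and the N-terminal stretch of the protein recruits NuRD, a complex that joins a chromatin remodeler to histone deacetylases. The form delN12 lacks that stretch and still holds the zinc fingers that contact DNA. Every condition had 1 library or 1 merged library, so no difference between conditions was tested and no p-value is given. Intervals beside shares are exact 95% binomial intervals (Clopper-Pearson) and cover counting error only.

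Sequences of 6 chosen regions are printed to show what such a region can look like and which binding letters it can hold. Each is 300 bases of the + strand of mm10 (RefSeq GRCm38.p6), centred on the ATAC-seq peak of SALL4-delN12 at day 5. Eva1a was chosen for its score and Twist1, Jun and Smad6 as genes of the lists. The regions nearest Nup35 and Atp10a were chosen for their AP-1 and AT-rich letters, which 60 of 968 searched regions held together. The searched regions had an ATAC-seq peak in MEFs, at day 1 with SALL4-delN12 alone and at day 5 with SALL4-delN12. All 6 printed regions had a SALL4-delN12 binding peak, against 75.9% of all regions. By the centring all had an ATAC-seq peak with SALL4-delN12 at day 5, against 70.0%. Capitals mark matches on either strand to letters bound by AP-1, GATA, SOX, FOX, TEAD and OCT factors and to an AT-rich run, each spelled out where their shares are given.
Eva1a: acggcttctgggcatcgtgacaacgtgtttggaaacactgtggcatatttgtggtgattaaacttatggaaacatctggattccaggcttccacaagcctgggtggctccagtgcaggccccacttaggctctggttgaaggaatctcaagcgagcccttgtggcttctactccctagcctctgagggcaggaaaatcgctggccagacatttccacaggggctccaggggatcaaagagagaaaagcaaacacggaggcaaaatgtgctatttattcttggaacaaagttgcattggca
Twist1: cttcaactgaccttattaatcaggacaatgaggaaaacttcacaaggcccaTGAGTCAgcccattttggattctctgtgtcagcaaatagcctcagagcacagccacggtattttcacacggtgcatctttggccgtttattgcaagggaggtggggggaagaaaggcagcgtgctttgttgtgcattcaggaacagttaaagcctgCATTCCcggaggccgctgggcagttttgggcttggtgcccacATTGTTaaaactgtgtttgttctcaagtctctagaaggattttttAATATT
Jun: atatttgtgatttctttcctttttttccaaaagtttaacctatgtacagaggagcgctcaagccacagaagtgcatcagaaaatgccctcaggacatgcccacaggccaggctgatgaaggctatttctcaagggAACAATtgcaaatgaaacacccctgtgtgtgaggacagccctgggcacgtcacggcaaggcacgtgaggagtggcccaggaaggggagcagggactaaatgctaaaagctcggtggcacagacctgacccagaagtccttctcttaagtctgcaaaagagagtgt
Smad6: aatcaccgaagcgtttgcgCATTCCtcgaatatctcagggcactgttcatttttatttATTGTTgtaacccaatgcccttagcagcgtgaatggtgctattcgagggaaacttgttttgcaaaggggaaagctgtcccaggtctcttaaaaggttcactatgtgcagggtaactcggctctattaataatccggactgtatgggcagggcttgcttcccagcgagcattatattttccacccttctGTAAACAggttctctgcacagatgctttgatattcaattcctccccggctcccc
Nup35: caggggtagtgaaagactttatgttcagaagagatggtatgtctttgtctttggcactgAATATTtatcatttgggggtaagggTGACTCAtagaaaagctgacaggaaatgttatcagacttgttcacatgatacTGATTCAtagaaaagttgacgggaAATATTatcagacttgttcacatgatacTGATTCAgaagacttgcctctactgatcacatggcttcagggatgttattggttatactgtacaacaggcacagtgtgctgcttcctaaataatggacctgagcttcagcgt
Atp10a: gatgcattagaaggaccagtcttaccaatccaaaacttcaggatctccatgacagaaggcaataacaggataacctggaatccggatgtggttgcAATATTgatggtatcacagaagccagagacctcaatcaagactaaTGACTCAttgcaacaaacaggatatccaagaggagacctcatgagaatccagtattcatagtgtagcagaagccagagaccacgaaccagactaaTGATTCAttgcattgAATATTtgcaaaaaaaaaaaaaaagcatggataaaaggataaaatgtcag

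The window near Nup35, at chr2:80947332-80947631, held 3 AP-1 matches and 2 AT-rich matches, and the window near Atp10a, at chr7:58443361-58443660, held 2 of each. The Nup35 AP-1 matches began at positions 85, 137 and 189, within stretches of like sequence that repeat along the window. In the Atp10a window 47% of the letters are marked as repeats in mm10, and its AP-1 matches share their flanking letters. The AP-1 matches within each of these windows are thus not independent. The window downstream of Twist1, at chr12:33981471-33981770, held 4 matches, 1 each of AP-1, SOX, TEAD and the AT-rich run. The intronic window at Smad6, at chr9:63980359-63980658, held 3 matches, of SOX, FOX and TEAD. The window near Jun, at chr4:95073035-95073334, held 1 SOX match. The window at Eva1a, chr6:82030076-82030375, held no match to these letters. A match is a run of letters and does not show that a protein binds there.

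The regions were the weaker part of the SALL4-delN12 H3K27ac list. Their median score was 139 (highest 566), against 164 in the 9769 delN12-only peaks that overlapped a SALL4-WT binding site and 312 in the 15769 peaks shared with the SALL4-WT H3K27ac list. The median length was 1183 bp (range 357 to 7875 bp), and all regions together covered 5.46 Mb. Without the score minimum 11188 peaks lacked SALL4-WT overlap, of which 7254 lay below it. The highest of these scored 99.98 and the lowest region 100. There were 667 regions with a score from 100 to 110 and 727 peaks from 90 to 100. The nearest SALL4-WT H3K27ac peak was a median of 32812 bp away and the nearest SALL4-WT binding peak 8389 bp. Within 1000 bp, 49 regions had a SALL4-WT H3K27ac peak and 294 a SALL4-WT binding peak.

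SALL4-delN12 itself had a peak at most of the regions. The CUT&Tag list of SALL4-delN12, which the rule did not use, overlapped 2987 of 3934 (75.9%, interval 74.6 to 77.3%), against 80.5% of all SALL4-delN12 H3K27ac peaks at this score. The share was 90.7% at the delN12-only peaks with SALL4-WT binding and 75.3% at the shared peaks. Where a SALL4-delN12 peak was present, its median score was 207 at the regions, 227 at the delN12-only peaks with SALL4-WT binding and 160 at the shared peaks. The lists of both SALL4 forms were of like length, 69475 peaks for SALL4-WT and 67310 for SALL4-delN12, and 51.1% of the SALL4-WT peaks and 52.1% of the SALL4-delN12 peaks overlapped the other list.

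Most of the regions lay away from promoters. A promoter is taken here as 2000 bp to each side of a transcription start site, and 910 regions touched one (23.1%), against 43.0% of all peaks in the list. The share was 15.99% at the delN12-only peaks with SALL4-WT binding and 64.7% at the shared peaks. The rest were placed by their centre. Of these 1603 were in introns (40.7%, against 30.9%), 1315 were intergenic (33.4%, against 24.4%) and 106 were in exons (2.69%, against 1.71%). The promoter regions and the distal regions differed in SALL4-delN12 binding, with a peak at 372 of 910 promoter regions (40.9%) and at 2615 of 3024 distal regions (86.5%). In the shared peaks the same shares were 69.9% and 85.2%, and in the whole list 68.7% and 89.4%. The regions were scattered over the genome, with 0.51 regions per Mb on chromosome X and 1.21 to 1.82 per Mb on the autosomes. The list itself was sparse on chromosome X, where 87 of its 603 peaks were regions (14.4%, against 13.3% over the genome). Neighbouring regions were joined into groups, with 12491 bp as the widest gap joined and 12584 bp as the narrowest gap not joined. They formed 3774 groups, of which 3627 were single regions and 13 held 3 regions, the most in any group.

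The 5 widest groups lay at Scarf2, Antxr1, Fgl2 with Gsap, Slc7a8 and Adgrf1. At Scarf2, a scavenger receptor gene, 3 regions spanned 26.7 kb (chr16:17796614-17823333), of which 1 had a SALL4-delN12 peak. At Antxr1, which encodes an anthrax toxin receptor that binds collagen, 3 regions spanned 26.3 kb (chr6:87247224-87273537), and all 3 had a SALL4-delN12 peak and an ATAC-seq peak with SALL4-delN12 at day 5, against 1 with SALL4-WT. At Fgl2 and Gsap 3 regions spanned 24.0 kb (chr5:21260437-21284457), with the same counts, 3 and 1, at day 5. At Slc7a8, an amino acid transporter, 3 regions spanned 20.3 kb (chr14:54748798-54769052) and were open at day 5 in 3 with SALL4-delN12 and 2 with SALL4-WT. At Adgrf1, an adhesion receptor, 2 regions spanned 19.3 kb (chr17:43247264-43266558).

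The ATAC-seq libraries showed how open the regions were before and after the factor was given, and a region is called open where it shares at least 1 base with an ATAC-seq peak. In MEFs 2829 regions were open (71.9%, interval 70.5 to 73.3%), against 89.0% of all peaks in the list. At day 1, 2576 were open with SALL4-delN12 (65.5%, against 90.2%) and 1106 with SALL4-WT (28.1%, against 79.5%). At day 5 the counts were 2755 (70.0%, against 91.1%) and 1844 (46.9%, against 87.9%), and at day 9 they were 2970 (75.5%, against 92.6%) and 1970 (50.1%, against 88.7%). At day 11 they were 2541 (64.6%, against 85.8%) and 2316 (58.9%, against 89.2%). The regions were thus less often open than the list as a whole in all 9 libraries, and the gap between the 2 forms was 37.4 percentage points at day 1 and 23.2 points at day 5. With ATAC-seq peaks of score 100 or more, the shares at day 1 were 39.6% with SALL4-delN12 and 12.3% with SALL4-WT. When an ATAC-seq peak had to cover at least 50% of a region, the shares at day 5 dropped to 2.08% with SALL4-delN12 and 2.67% with SALL4-WT and their order turned. ATAC-seq peaks had a median length of 214 to 240 bp. The delN12-only peaks with SALL4-WT binding were open at 90.9% with SALL4-delN12 and 73.01% with SALL4-WT at day 1, and at 90.5% and 86.6% at day 5. The rule removed peaks that overlap either SALL4-WT list. At day 5 with SALL4-WT, 48470 of 69475 SALL4-WT binding peaks (69.8%) and 18712 of 19841 SALL4-WT H3K27ac peaks (94.3%) were open. Without the H3K27ac list in the rule, 5113 peaks qualified. Of these 69.0% were open with SALL4-delN12 and 41.5% with SALL4-WT at day 1, and 73.8% and 57.9% at day 5. The gap was then 27.5 and 15.9 points. That rule still used the SALL4-WT binding list, and the whole part of the low SALL4-WT shares that follows from the rule was not tested. The ATAC-seq lists also differed in length, from 78517 peaks with SALL4-delN12 at day 11 to 125470 in MEFs, with 83821 (SALL4-WT) and 94828 (SALL4-delN12) at day 1.

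**Figure D1:**
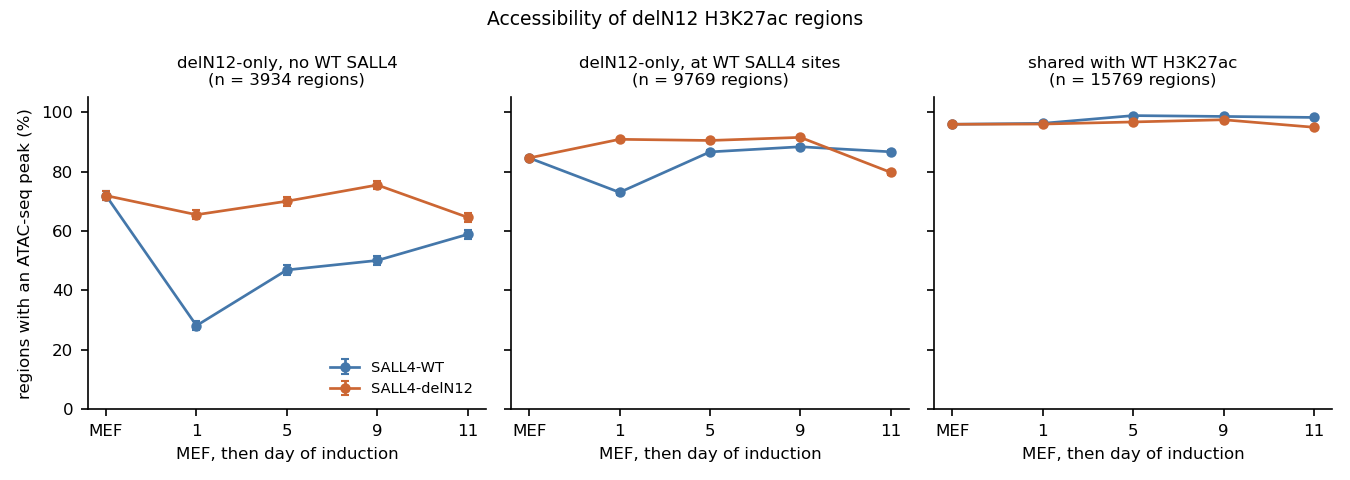
Share of regions open (percent, vertical axis) in MEFs and at days 1, 5, 9 and 11 (evenly spaced on the horizontal axis) with SALL4-WT and SALL4-delN12, for the delN12-only regions without SALL4-WT binding, the delN12-only peaks at SALL4-WT sites and the shared peaks, with exact 95% binomial intervals as bars. With SALL4-WT the regions dropped from 71.9% in MEFs to 28.1% at day 1 and reached 58.9% at day 11, while with SALL4-delN12 they stayed between 64.6% and 75.5%.

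The difference between the forms at day 1 was present both in regions open in MEFs and in regions closed in MEFs. Of the 2829 regions open in MEFs, 1812 had no peak at day 1 with SALL4-WT (64.1%) and 791 had none with SALL4-delN12 (28.0%). Of the 26224 list peaks open in MEFs, the shares without a peak at day 1 were 15.8% and 6.97%, lower than in the regions and also higher with SALL4-WT. Of the 1812, 998 had a peak again at day 11 (55.1%, against 68.1% of the list peaks that lacked one at day 1). All 4 days were open at 1419 regions with SALL4-delN12 (50.2%) and at 779 with SALL4-WT (27.5%), against 83.2% and 79.7% of the list peaks open in MEFs, and 579 were open in all 9 libraries (14.7% of the 3934, against 65.2% of all peaks in the list). At no day was a peak found at 582 with SALL4-WT (20.6%) and at 174 with SALL4-delN12 (6.15%), against 3.005% and 1.22%. The 1105 regions closed in MEFs had peaks more often with SALL4-delN12 than with SALL4-WT, by most at day 1. At day 1, 538 of them were open with SALL4-delN12 (48.7%) and 89 with SALL4-WT (8.05%), against 67.7% and 41.3% of the list peaks closed in MEFs. At day 11 they were 502 (45.4%) and 415 (37.6%), against 55.9% and 63.02%. All 4 days were open at 263 with SALL4-delN12 (23.8%, against 40.5%) and at 39 with SALL4-WT (3.53%, against 31.6%). A peak with SALL4-delN12 at some day and with SALL4-WT at none was found at 351 (31.8%, against 14.3%), and the other way round at 46 (4.16%, against 3.94%). A further 190 regions had no ATAC-seq peak in any library (4.83% of the 3934, against 0.865%).

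Set against each other day by day, regions open with SALL4-delN12 alone outnumbered regions open with SALL4-WT alone by 1713 to 243, 1222 to 311, 1232 to 232 and 666 to 441 at days 1, 5, 9 and 11, respectively. With SALL4-delN12 alone these are 43.5%, 31.1%, 31.3% and 16.9% of the regions, against 14.1%, 7.56%, 7.37% and 4.60% of all peaks in the list. With SALL4-WT alone they are 6.18%, 7.91%, 5.90% and 11.2%, against 3.33%, 4.34%, 3.52% and 7.91%. The list as a whole thus leaned to SALL4-delN12 at days 1, 5 and 9 as well, by a smaller margin, and to SALL4-WT at day 11, where the regions still leaned to SALL4-delN12. Regions open with both forms numbered 863, 1533, 1738 and 1875 at the 4 days (21.9%, 39.0%, 44.2% and 47.7%, against 76.1%, 83.5%, 85.2% and 81.2% of the list). The delN12-alone count was thus lower at day 11 than at the earlier days, and the count open with both was highest there, while over the list it was highest at day 9.

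**Figure D2:**
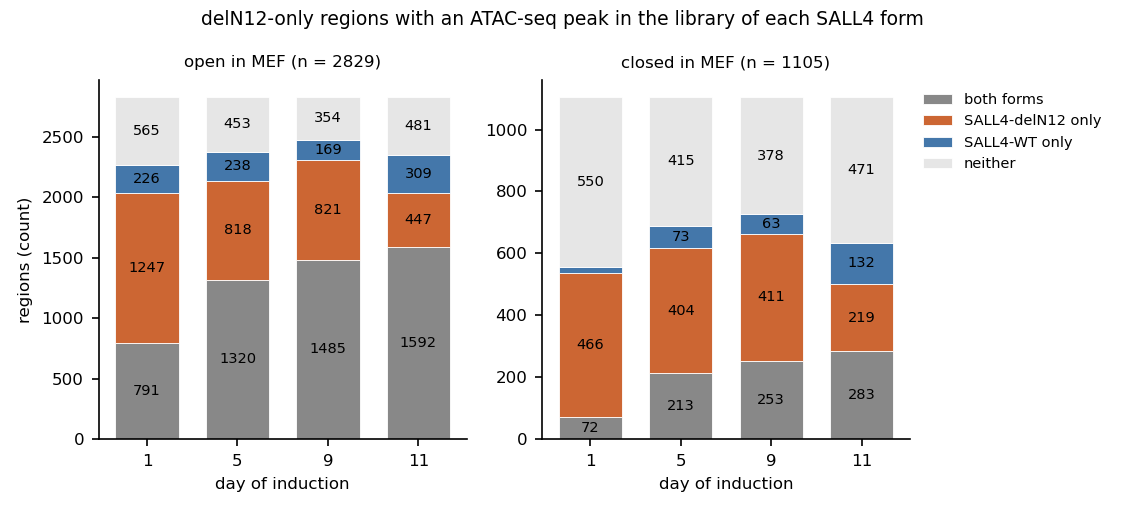
Number of regions (vertical axis) open with both SALL4 forms, with SALL4-delN12 alone, with SALL4-WT alone or with neither at each day (evenly spaced on the horizontal axis), for regions open in MEFs (2829) and closed in MEFs (1105). At day 1 the delN12-alone class held 1247 and 466 regions of the 2 panels, against 226 and 17 for SALL4-WT alone.

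The gap between the forms was wider in distal than in promoter regions, and wider in regions with a SALL4-delN12 peak than in those without. Distal regions were open at day 1 at 66.5% with SALL4-delN12 and 19.6% with SALL4-WT (all distal peaks in the list 87.7% and 69.4%), and at day 5 at 69.3% and 39.5% (87.8% and 81.5%). Promoter regions were open at day 1 at 62.1% and 56.4% (all promoter peaks 93.6% and 92.7%), and at day 5 at 72.3% and 71.4% (95.5% and 96.3%). Regions with a SALL4-delN12 peak were open at day 5 at 72.4% with SALL4-delN12 and 38.4% with SALL4-WT, against 92.7% and 86.7% of all peaks with one. In the 947 regions without one the order was reversed, 62.4% and 73.5%, and so it was in all list peaks without one, 84.7% and 92.6%. The delN12-only peaks at SALL4-WT sites that lacked a SALL4-delN12 peak also had the higher share with SALL4-WT, 78.3% and 90.02%. With rising H3K27ac score, the share open with SALL4-delN12 at day 5 went from 62.9% (scores 100 to 150, 2299 regions) over 74.8% and 84.7% to 90.2% (scores of 300 or more, 173 regions), and the share open with SALL4-WT from 41.6% over 50.5% and 60.1% to 53.8%. Over the same scores all peaks in the list went from 79.3% to 99.4% with SALL4-delN12 and from 74.4% to 98.2% with SALL4-WT.

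The 10 regions of highest score, which score chose and so describes, all had a SALL4-delN12 peak, were all open in MEFs and were all open at all 4 days with SALL4-delN12. With SALL4-WT 3, 7, 7 and 10 of them were open at the 4 days. The highest score, 566, belonged to a promoter inside Sgip1, an endocytic adaptor gene (chr4:102758756-102760898). Its ATAC-seq peak scored 837 in MEFs, was absent at day 1 with SALL4-WT and scored 241, 247 and 322 at days 5, 9 and 11, and with SALL4-delN12 it scored 158, 135, 241 and 158 at the 4 days. Only day 1 separated the forms there in presence of a peak, and the SALL4-WT scores were the higher ones from day 5. Sgip1 RNA stayed below 1 FPKM in all 8 libraries.

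A region 10578 bp upstream of Eva1a, a lysosomal membrane gene of the PrE list, scored 538 and had a SALL4-delN12 peak of 505 (chr6:82029436-82031045). Its ATAC-seq peak scored 1048 in MEFs, was absent at day 1 with SALL4-WT and scored 182, 87.0 and 391 at the later days, and with SALL4-delN12 it scored 231, 232, 412 and 460. Eva1a RNA was 2.26, 4.84, 3.39 and 6.05 FPKM with SALL4-WT and 2.13, 5.73, 6.55 and 13.7 FPKM with SALL4-delN12 at the 4 days. The RNA levels were alike at days 1 and 5 and higher with SALL4-delN12 at days 9 and 11, with log2 differences of 0.78 and 1.06. All log2 differences of RNA are of FPKM + 1, SALL4-delN12 minus SALL4-WT.

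A region of score 503 lay 80581 bp from Agtr2, the gene of an angiotensin receptor (chrX:21565125-21568515). Its ATAC-seq peak scored 142 in MEFs and 88.1 at day 1 and 78.9 at day 11 with SALL4-WT, without a peak at days 5 and 9, and 92.1, 152, 160 and 82.0 with SALL4-delN12. Agtr2 RNA was the lower with SALL4-delN12, at 1.02 against 9.20 FPKM at day 5 and 1.18 against 17.6 FPKM at day 9.

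Near Cxcl5, a neutrophil chemokine gene, a region of score 535 lay 51944 bp from the gene (chr5:90705681-90707434) and another of score 121 at its promoter (chr5:90758674-90759974). The distal region was open in MEFs at 210, with SALL4-WT at days 9 and 11 only (136 and 243), and with SALL4-delN12 at 78.1, 315, 337 and 249. Cxcl5 RNA was 5.67, 28.6, 25.9 and 98.0 FPKM with SALL4-WT and 0.99, 7.21, 5.41 and 17.3 FPKM with SALL4-delN12. At Agtr2 and Cxcl5, the RNA was thus lower in the cells whose chromatin carried the H3K27ac peak. Of the 9 genes nearest the 10 regions of highest score, these 2 were lower by at least 1 in log2 at some day, 1 (Eva1a) was higher and 6 were past it at no day. Of all genes, 4.18% to 6.55% were higher and 5.19% to 6.58% lower at a single day. The share of all genes past the difference at some day is not given here, so these counts are a description only.

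Regions were looked up near genes of the PrE, yolk-sac endoderm, pluripotency, fibroblast, NuRD, BMP target, AP-1, epithelial and chromatin lists. Of all 21924 protein-coding genes, 3.06% had a region at the promoter and 18.3% had one within 50000 bp. Within 50000 bp of a list gene there were 36 regions, of which 20 had a SALL4-delN12 peak (55.6%, against 75.9% of all regions) and 29 were open in MEFs (80.6%, against 71.9%). At days 1, 5, 9 and 11, 27, 29, 32 and 32 of them were open with SALL4-delN12 and 13, 24, 21 and 27 with SALL4-WT. At day 5 these are 80.6% and 66.7%, against 70.0% and 46.9% of all regions. Of the 36, 21 were open at more days with SALL4-delN12 than with SALL4-WT, 12 at as many and 3 at fewer. The same split over all regions is not given here, and all regions leaned to SALL4-delN12 at each of the 4 days as well. Of 12 PrE genes none had a region at its promoter and 2, Eva1a and Gata6, had one within 50000 bp, while 6 had some SALL4-delN12 H3K27ac peak at the promoter. Of 20 yolk-sac endoderm genes 2 had a region at the promoter, Lamb1 and Lrp2, and 8 within 50000 bp. None of 20 fibroblast genes and none of 13 NuRD genes had one at the promoter, with 2 and 7 within 50000 bp. Among 20 pluripotency genes the promoter was Dnmt3l, and among 11 chromatin genes it was Dnmt1.

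**Figure D3:**
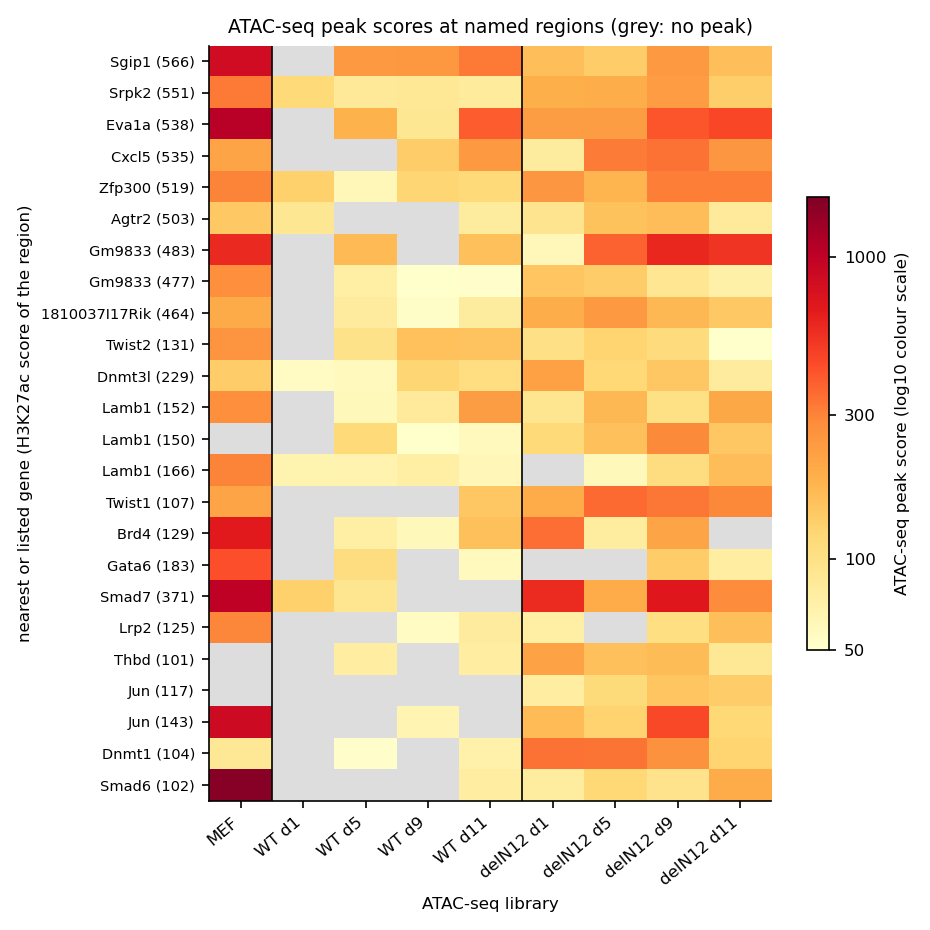
ATAC-seq peak scores (log10 colour scale) in the 9 libraries (columns) at named regions (rows, by gene with the H3K27ac score in brackets), with grey for a library without a peak. The region near Jun (score 117) had peaks only with SALL4-delN12, from 76.9 to 147.

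Regions near Twist1, Jun, Smad6 and Smad7 were among the 21 open at more days with SALL4-delN12. The region near Id1 was open at all 4 days with both forms, and regions near Fosb and Mbd3 and at the Lamb1 promoter were open at all 4 days with SALL4-WT and at fewer with SALL4-delN12. A region 23526 bp downstream of Twist1, a mesenchymal transcription factor gene, scored 107 and had a SALL4-delN12 peak of 216 (chr12:33981197-33981977). It was open in MEFs at 213, had no peak with SALL4-WT until day 11, at 145, and scored 194, 359, 329 and 291 with SALL4-delN12. Twist1 RNA was 47.0, 118, 123 and 114 FPKM with SALL4-WT and 28.1, 51.6, 45.9 and 62.4 FPKM with SALL4-delN12. The RNA of Twist1 was lower with SALL4-delN12 at each of the 4 days, with log2 differences from -0.72 to -1.40.

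Jun encodes an AP-1 subunit, and 2 regions lay upstream of it. The first, 20600 bp away (chr4:95072822-95073703), had no peak in MEFs or at any day with SALL4-WT and scored 76.9, 113, 147 and 136 with SALL4-delN12. The second, 45411 bp away (chr4:95097633-95102413), scored 861 in MEFs, had a peak with SALL4-WT only at day 9, at 64.9, and scored 166, 127, 453 and 118 with SALL4-delN12. Jun RNA differed by 0.15, -0.48, -0.77 and -0.04 in log2 at the 4 days.

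Smad6 and Smad7 encode inhibitory SMADs that BMP signalling induces. The region in Smad6, of score 102 and with a SALL4-delN12 peak of 333 (chr9:63979759-63981666), scored 1493 in MEFs, was open with SALL4-WT only at day 11, at 75.2, and scored 77.9, 118, 94.8 and 194 with SALL4-delN12. The region 13000 bp from Smad7 scored 371. It was open in MEFs at 1001, with SALL4-WT at days 1 and 5 only (130 and 90.8), and with SALL4-delN12 at 580, 194, 694 and 278. Smad6 RNA was lower with SALL4-delN12 at days 1, 5 and 9 (20.1 to 6.02, 22.0 to 7.36 and 22.7 to 8.78 FPKM) and alike at day 11 (16.7 and 16.4 FPKM). Smad7 RNA differed by 0.07 to 0.66 in log2 and was the higher with SALL4-delN12 each time. Of the 6 BMP target genes, 4 were lower by at least 1 in log2 at each of days 1, 5 and 9, against 5.63%, 5.19% and 5.75% of all genes, and none was at day 11. Bambi, a pseudoreceptor that dampens BMP signalling, was the 1 gene higher by at least 1, at day 1 (2.17 to 7.45 FPKM, 1.42 in log2). Genes of marker lists of other cell types were past this difference at these days and at day 11 as well. Of 20 fibroblast genes 6, 9, 11 and 8 were lower by at least 1 at days 1, 5, 9 and 11, and 3, 2, 1 and 2 higher. Of the epithelial genes at or above 1 FPKM, 4 of 5, 7 of 7, 8 of 8 and 8 of 10 were higher and none lower. Of 12 PrE genes 2, 3, 7 and 10 were higher at the 4 days and 1, 1, 1 and 0 lower. Of 20 yolk-sac endoderm genes 2, 2, 4 and 7 were higher and 2, 4, 4 and 0 lower. Of 20 pluripotency genes 0, 2, 4 and 4 were higher and 0, 1, 1 and 1 lower. Of all genes, 4.18%, 4.67%, 6.09% and 6.55% were higher at the 4 days, and 6.58% were lower at day 11. The part of cell composition in the RNA differences was not tested.

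Gata6, a PrE transcription factor gene, had 1 region 16535 bp upstream of its start, in an intron of another annotated transcript, of score 183 with a SALL4-delN12 peak of 224. It was open in MEFs at 430, with SALL4-WT at day 5 (107) and day 11 (57.5), and with SALL4-delN12 at day 9 (137) and day 11 (76.7). Neither form held it open throughout, and Gata6 RNA differed by -0.58 at day 5 and 0.42 at day 11. The Dnmt1 promoter region, at the gene of the maintenance DNA methyltransferase, scored 104 with a SALL4-delN12 peak of 168 (chr9:20960985-20962856). The Dnmt1 promoter also held an H3K27ac peak shared with SALL4-WT. The ATAC-seq peak of the region scored 84.7 in MEFs, 50.9 at day 5 and 70.0 at day 11 with SALL4-WT, and 337, 332, 266 and 124 with SALL4-delN12. Dnmt1 RNA was 18.7, 13.004, 9.13 and 10.3 FPKM with SALL4-WT and 22.9, 21.3, 19.7 and 14.8 FPKM with SALL4-delN12, higher each time and by 1.03 in log2 at day 9.

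The promoter region of Lamb1, a laminin chain of the basement membrane, was the longest of those at list genes, with 5464 bp and a score of 166 (chr12:31264495-31269958), and a further 2 regions lay 12541 and 45187 bp away. Its ATAC-seq peaks were present with SALL4-WT at all days (61.2 to 73.9) and with SALL4-delN12 at days 5, 9 and 11 (59.2, 108 and 160). Lamb1 RNA differed by -0.41 at day 5 and 0.69 at day 11. Lrp2, an endocytic receptor of yolk-sac endoderm, had a promoter region of score 125 without a SALL4-delN12 peak, and its RNA differed by 1.08 at day 11 (1.34 to 3.95 FPKM). Dnmt3l, a cofactor of DNA methyltransferases, had a region of score 229 with a SALL4-delN12 peak of 228, was open in all 9 libraries and stayed below 1 FPKM in all 8 RNA libraries.

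The promoter regions touched 1051 genes, of which 772 were in the RNA table. These genes were expressed at low levels, with a median of 0.49 to 1.28 FPKM over the 8 libraries. The genes of the delN12-only promoter peaks with SALL4-WT binding were at a like level, 0.56 to 1.17 FPKM. Genes with a shared H3K27ac peak at the promoter stood at 6.69 to 7.43 FPKM. Genes that reached 1 FPKM with one or the other form numbered 360, 415, 431 and 448 at days 1, 5, 9 and 11. The median log2 difference over them was 0.04, -0.02, 0.08 and 0.00. Over all genes the medians were -0.03, -0.01, 0.03 and 0.01. Promoter genes without a shared H3K27ac peak had medians of 0.04, -0.01, 0.12 and 0.04, and the nearest genes of distal regions within 50000 bp had -0.02, -0.03, -0.04 and -0.12. The medians describe 1 library of each form per day, and how far they would vary between libraries is not known. In bulk RNA, fewer cells of a type and less RNA per cell cannot be told apart.

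Single genes were past a log2 difference of 1 more often than all genes, in both directions. At day 1, 38 genes were higher and 38 lower by at least 1 in log2 (10.6% each, against 4.18% higher and 5.63% lower over all genes). At day 5 it was 52 higher (12.53%, against 4.67%) and 49 lower (11.8%, against 5.19%), at day 9 68 higher (15.8%, against 6.09%) and 52 lower (12.1%, against 5.75%), and at day 11 50 higher (11.2%, against 6.55%) and 59 lower (13.2%, against 6.58%). The genes of the delN12-only promoter peaks with SALL4-WT binding stood at 8.26% higher and 11.1% lower at day 5, and those of the shared promoter peaks at 1.68% and 3.28%. The nearest genes of distal regions within 50000 bp stood at 4.15% and 7.04% at day 5 and at 5.11% and 9.20% at day 11. The share at day 5 depended on the level of the gene. At day 5, the 151 promoter genes with a mean log2 level below 2 stood at 6.62% higher and 9.93% lower, against 6.87% and 6.34% of all genes at that level. Between 2 and 3 they stood at 14.9% and 15.8% (against 4.87% and 5.89%), between 3 and 4 at 21.1% and 11.3% (against 3.93% and 5.20%), and from 4 at 13.04% and 10.9% (against 3.30% and 3.85%). At days 1, 9 and 11 the genes below 2 stood at 7.63%, 10.3% and 9.62% higher (against 5.77%, 9.05% and 9.63%) and at 12.98%, 8.22% and 8.97% lower (against 8.15%, 6.18% and 8.15%). Below this level the promoter genes were thus near all genes at day 11 and past them at day 1, by less than in the higher bands of day 5. With a pseudocount of 0.1 the share of promoter genes past the difference in either direction at day 5 rose from 24.3% to 37.8% (all genes from 9.86% to 15.5%), and without the FPKM minimum it was 14.4% (all genes 5.98%). Genes whose promoter also held a shared H3K27ac peak stood at 5.71% in each direction at day 5, and those with none at 13.9% and 13.04%.

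**Figure D4:**
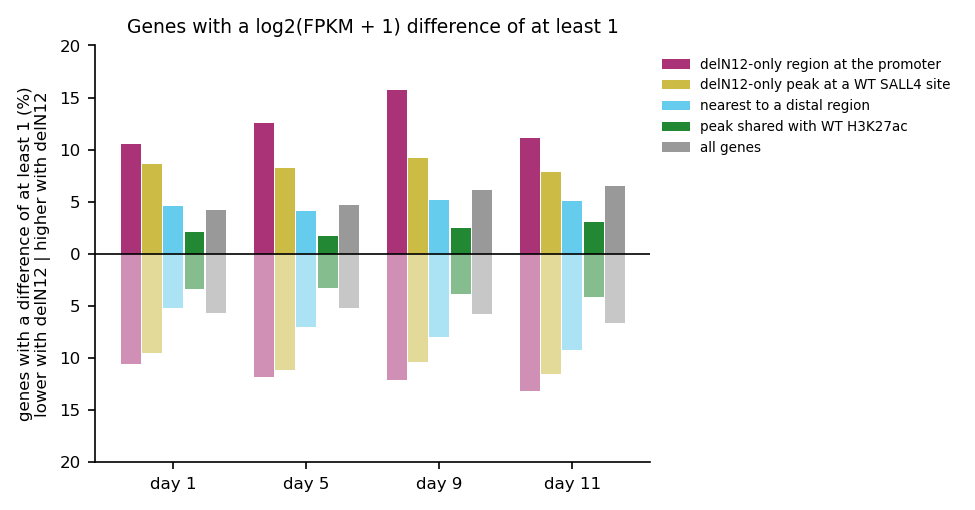
Percent of genes (vertical axis) higher or lower by at least 1 in log2(FPKM + 1), SALL4-delN12 minus SALL4-WT, at each day, drawn upward and downward from 0, for genes with a delN12-only region at the promoter, genes nearest a distal region, the 2 comparison sets and all genes. At day 9 the promoter genes stood at 15.8% higher and 12.1% lower, against 6.09% and 5.75% of all genes.

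Of the promoter genes that were higher, those with the largest differences at days 5 and 9 are described first. Tfap2c, a transcription factor of trophoblast and germ cells, was 0.48, 1.39, 2.24 and 2.36 FPKM with SALL4-WT and 25.2, 21.4, 30.4 and 13.9 FPKM with SALL4-delN12. Its promoter region (chr2:172548715-172552128, score 162) had no SALL4-delN12 peak and was open in all 9 libraries. Esrrb, an orphan nuclear receptor of pluripotent cells, was 0.03, 1.85, 1.82 and 2.00 FPKM against 1.46, 21.01, 15.5 and 6.49 FPKM (chr12:86421303-86422883, score 146). Ooep, an oocyte gene, was 0.33 against 9.66 FPKM at day 5 and 0.17 against 12.1 FPKM at day 9, and its region (chr9:78378199-78378943, score 117) was open with SALL4-delN12 at days 5, 9 and 11 and with SALL4-WT at none. At day 1 Ooep was listed at 0.27 and 0.09 FPKM, so its difference appeared from day 5.

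Tmprss2, a transmembrane serine protease of epithelia, had the largest day 5 difference, 4.91 in log2. Its RNA was 0.32, 0.54, 1.02 and 2.17 FPKM with SALL4-WT and 2.50, 45.4, 16.1 and 19.5 FPKM with SALL4-delN12. The promoter region (chr16:97610711-97611638, score 120) was closed in MEFs and at day 1 and open with both forms from day 5, and the SALL4-WT scores of 116, 62.8 and 228 were above the SALL4-delN12 scores of 88.6, 53.6 and 115. Lrrc15, a membrane protein of matrix-rich fibroblasts, had the largest day 9 difference, 4.59, at 3.15 against 98.7 FPKM, and was 1.15 against 22.0 FPKM at day 1. Rspo4, which encodes a secreted WNT enhancer, was 3.88 against 25.5 FPKM at day 5 and 5.51 against 59.0 FPKM at day 9. Pycr1, of proline synthesis, and Osgin1, a stress response gene, were higher by 2.33 and 2.19 in log2 at day 5. Csf1r, the receptor of a macrophage growth factor, was 1.17 against 9.09 FPKM at day 5, and Fam163b 0.05 against 14.0 FPKM. Ntng2 and Trim63, a muscle ubiquitin ligase, joined them at day 9 with 3.13 and 2.66.

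Of the promoter genes that were lower, C2cd4a had the largest difference at both days, -2.98 at day 5 and -4.20 at day 9 in log2. C2cd4a was 18.2, 58.7, 72.5 and 72.8 FPKM with SALL4-WT and 5.76, 6.57, 2.99 and 3.42 FPKM with SALL4-delN12, and its promoter region (chr9:67830593-67832591, score 177) was open in all 9 libraries. Dcn, the proteoglycan decorin, was 8.61 against 1.29 FPKM at day 5. Thbs2, a thrombospondin, was 77.9 against 18.5 FPKM at day 9, and Col15a1, a basement membrane collagen, 6.13 against 0.59 FPKM. Whether genes of any function were more common among the lower genes was not tested. The log2 differences of Adam22, Ccdc3, Stmn2, Robo2 and Prkar1b were -2.22, -2.02, -1.86, -1.78 and -1.71 at day 5, and those of Gdpd2 and Slc16a9 -2.40 and -1.98 at day 9. These genes were chosen as lower with SALL4-delN12 and their regions by an H3K27ac peak in the same cells. That the lower RNA and the peak go together here follows from the choice.

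The promoter regions of the genes named as higher and as lower were compared for SALL4-delN12 binding and openness. Of the 12 genes named as higher, 2 had a SALL4-delN12 peak at the region and 9 were open in MEFs. Of the 12 named as lower, 5 had a SALL4-delN12 peak and 12 were open in MEFs. Of all 910 promoter regions, 40.9% had a SALL4-delN12 peak and 84.4% were open in MEFs. None of either group had a shared H3K27ac peak at the promoter. At all 4 days 10 of the 12 named as higher were higher and 10 of the 12 named as lower were lower, by any amount. The genes were named for their differences at days 5 and 9, so the direction there follows from the choice. The same count over all genes is not given here. Of the 351 promoter genes at or above the FPKM minimum at every day, 16 were higher by at least 1 at all 4 days (4.56%, against 1.09% of all genes) and 14 lower (3.99%, against 1.15%). Hmox1, the heme oxygenase of the oxidative stress response, was among the lower ones at 713, 732, 696 and 693 FPKM with SALL4-WT and 202, 264, 177 and 248 FPKM with SALL4-delN12. Apcdd1, a WNT inhibitor, was among the higher ones at 11.1, 69.5, 82.2 and 64.2 FPKM against 39.2, 180, 216 and 158 FPKM. Slc2a3, a glucose transporter, whose region lay 33827 bp from Nanog, was 7.41 against 25.4 FPKM at day 5.

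**Figure D5:**
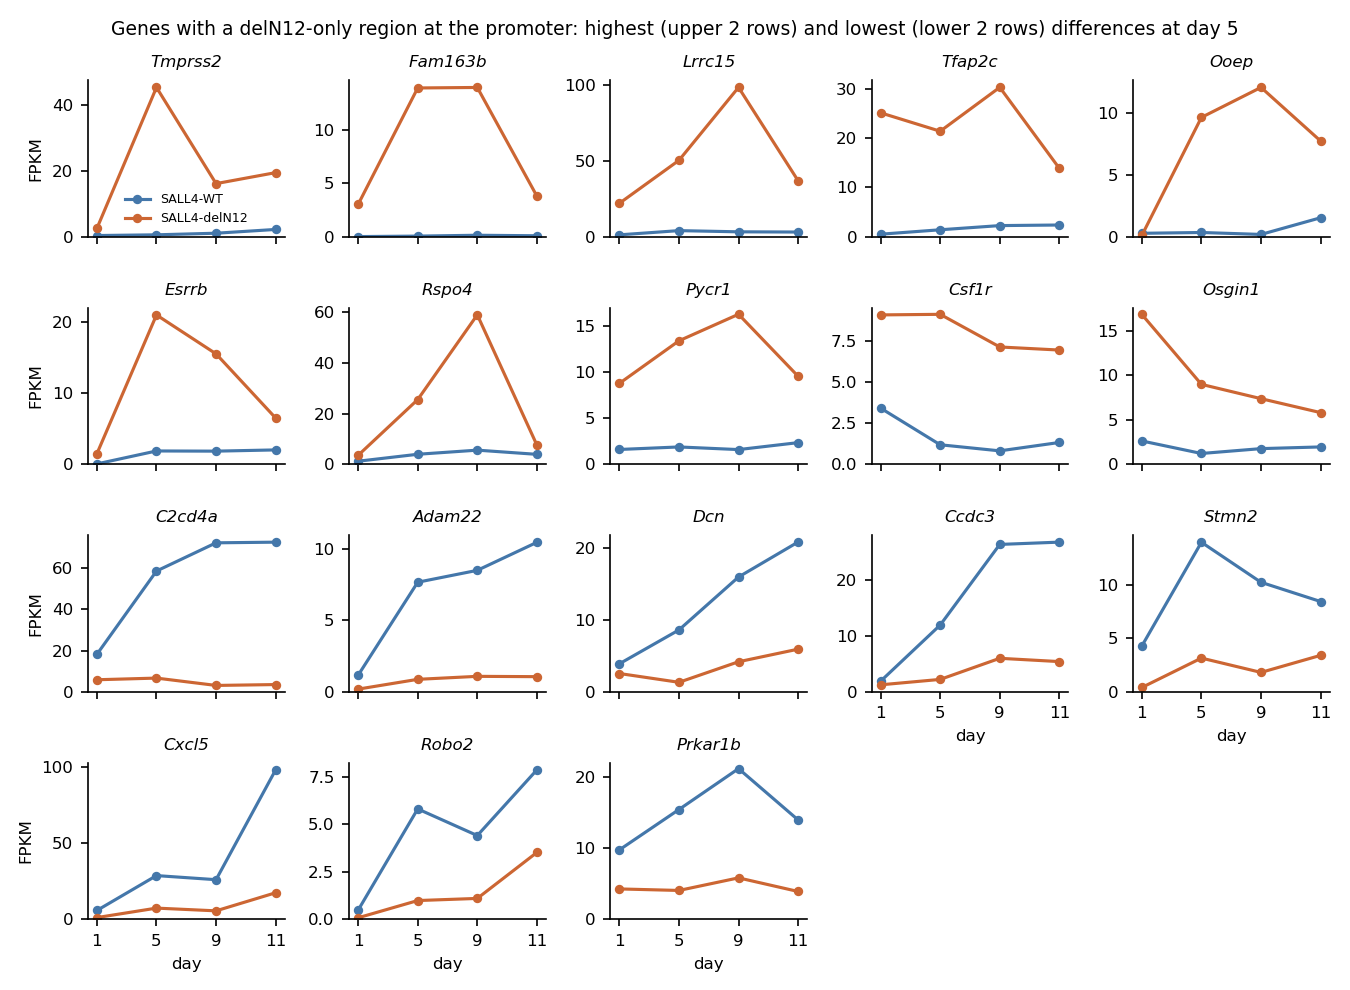
RNA level (FPKM, vertical axis, 1 scale per gene) at each day (evenly spaced) with SALL4-WT and SALL4-delN12 for the genes with a delN12-only region at the promoter and the highest (10 genes) or lowest (8 genes) log2 differences at day 5 of those described here. Tmprss2 and Lrrc15 were higher with SALL4-delN12 at every day, and C2cd4a and Dcn lower.

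The binding letters in the regions were counted in 300 bp at the peak centre. GATA letters (AGATAA) were in 14.0% of the regions, against 11.4% of all peaks in the list, SOX letters (ATTGTT) in 14.0% (against 10.9%), FOX letters (TGTTTAC) in 5.11% (against 4.15%) and AT-rich letters (AATATT) in 8.70% (against 5.25%). AP-1 letters (TGANTCA) were in 22.9% (against 22.3%), TEAD letters (GGAATG) in 18.3% (against 18.0%), OCT letters (ATTTGCAT) in 1.47% (against 1.13%) and KLF letters (CACCC, either strand) in 51.1% (against 57.2%). In 32851 RefSeq promoters of the same length the shares of GATA, AP-1 and AT-rich letters were 11.2%, 7.81% and 6.81%. The regions thus held somewhat more AT-rich letters and fewer KLF letters than the list, and their median GC content was 46.7%, against 50.7%.

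Among distal peaks, AP-1 letters were rarer and AT-rich letters more common in the regions than in the comparison sets. AP-1 letters were in 26.7% of the distal regions, 37.4% of the distal delN12-only peaks with SALL4-WT binding and 29.7% of the distal shared peaks. AT-rich letters were in 9.66%, 7.52% and 5.07%. Windows were then split by GC content. Among distal peaks with a SALL4-delN12 peak, AT-rich letters were in 18.05%, 10.0% and 4.64% of the regions with a GC content below 42%, from 42% to 48% and from 48%, against 16.6%, 8.39% and 3.401% of all such peaks. AP-1 letters were in 34.4%, 30.6% and 21.6%, against 32.9%, 36.7% and 32.4%. The AT-rich share was thus higher in the regions than in all such peaks in each band of GC, while the AP-1 share was lower in the regions in the middle and the highest band.

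Letters were also counted in regions open with SALL4-delN12 alone at day 5 and in those open with both forms. In 200 bp at the centre of the SALL4-delN12 ATAC-seq peak, AP-1 letters were in 36.4% of the regions open with SALL4-delN12 alone and 22.8% of those open with both, GATA letters in 11.2% and 5.94%, SOX letters in 12.9% and 7.63%, and AT-rich letters in 7.78% and 3.78%. Over all peaks of the list with such an ATAC-seq peak, AP-1, GATA, SOX and AT-rich letters were in 30.0%, 6.23%, 6.90% and 2.43% of these windows. The median GC content of the windows was 45.0% and 50.5%. In all SALL4-delN12 H3K27ac peaks the AP-1 shares were 39.1% and 29.2% and the AT-rich shares 6.38% and 2.08%. Promoters made up 138 of the 1222 regions open with SALL4-delN12 alone and 520 of the 1533 open with both. In distal regions alone the shares were closer, with AP-1 letters in 37.3% and 30.7%, GATA letters in 11.3% and 6.52%, SOX letters in 13.3% and 10.3% and AT-rich letters in 8.03% and 4.74%. Over all distal peaks in the list the AP-1 order turned, with 40.2% and 47.6%. In 300 bp at the peak centre, the distal regions had AT-rich letters in 10.9% and 9.87%. Among the regions open in MEFs and at day 1 with SALL4-delN12 alone, AT-rich letters were in 12.52% and AP-1 letters in 29.8% of 300 bp at the peak centre. The region nearest Nup35, 307948 bp from it (chr2:80946764-80948262), belongs to these. It scored 452 with a SALL4-delN12 peak of 751, was open in MEFs at 256, at no day with SALL4-WT, and with SALL4-delN12 at 208, 64.1 and 125 at days 1, 5 and 9. The region nearest Atp10a, 214425 bp from it (chr7:58442397-58443821), scored 368 and was open in MEFs at 460, at no day with SALL4-WT and with SALL4-delN12 at 102.8, 126, 74.7 and 163. Both regions were picked among those open in MEFs, at day 1 with SALL4-delN12 alone and at day 5 with SALL4-delN12. These states follow from the choice. The states at days 9 and 11, and with SALL4-WT at day 5, were not part of that rule.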

How the data were processed

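ATAC-seq (9 libraries), CUT&Tag (4) and RNA-seq (8) of SALL4-WT and SALL4-delN12 cells and MEFs were used. The authors trimmed reads with Trim Galore 0.6.4, aligned ATAC-seq and CUT&Tag reads to mm10 with Bowtie2 2.4.5, filtered them with SAMtools 1.16.1, merged CUT&Tag replicates and deposited MACS 1.4.2 peaks with a score per peak, whose lowest value is 50. The score is derived from the peak's p-value and is not scaled for depth, so a deeper library has more and higher peaks. Read depths of the libraries are not given in the sources used here, and the number of peaks stands in for them. For RNA-seq the authors used HISAT2 2.2.1 and StringTie 2.2.1 and deposited FPKM values per gene symbol.

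Peaks were intersected at 1 bp or more with Python 3.11.15, numpy 2.4.6 and pandas 2.3.3, intervals came from SciPy 1.17.1 and figures from matplotlib 3.10.9. Promoters are 2000 bp to each side of transcription start sites of GENCODE vM21 basic. Of 35976 symbols, 26763 matched that annotation directly and 508 by a synonym. RNA differences are log2(FPKM + 1), SALL4-delN12 minus SALL4-WT, for genes that reached 1 FPKM with one or the other form. Letters were searched in 300 bp at peak centres on both strands of RefSeq GRCm38.p6, read with pyfaidx 0.9.0.4. The intersection and RNA steps were tested on simulated data. Named genes are the 10 highest and 10 lowest log2 differences at days 5 and 9 among genes with a region at the promoter and an FPKM of at least 5, list genes with a region at the promoter, the 10 regions of highest score, the 5 widest groups and regions within 50000 bp of list genes. Some genes and sequences that this rule names are not reported here. The regions nearest Nup35 and Atp10a, and genes past the difference at all 4 days, were chosen after their values were seen. Members and lists were chosen with earlier results of these data known. Alternatives changed the score minimum, the overlap, the promoter width, the ATAC-seq lists, the letter window and the RNA filters.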

Additional observations from a re-analysis of the deposited data

How the results depend on the processing

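Of 102 alternative values of 13 results, 47 stayed within the interval of the value reported or, for the number of regions, within 1.5 times of it, and 55 did not. With a score minimum of 50 the regions numbered 11188, and 61.9% had a SALL4-delN12 peak, 19.7% were at promoters, 61.5% were open in MEFs, and 54.1% and 38.4% were open at day 5 with SALL4-delN12 and SALL4-WT. With a minimum of 200 the same values were 767, 84.7%, 26.2%, 80.4%, 85.9% and 58.7%. With the SALL4-delN12 list shortened to its 19841 highest peaks, the length of the SALL4-WT list, they were 1370, 81.1%, 25.3%, 79.4%, 81.2% and 56.6%. With an overlap of at least 50% of the region the SALL4-delN12 share was 71.1%, the MEF share 18.7% and the day 5 shares 2.08% and 2.67%. ATAC-seq peaks have a median length of 214 to 240 bp and regions 1183 bp, so few can cover that much. With ATAC-seq peaks of score 100 or more the MEF and day 5 shares were 58.1%, 38.6% and 25.9%, and with all ATAC-seq lists shortened to 78517 peaks they were 59.4%, 64.5% and 37.5%. With the SALL4-WT H3K27ac list left out of the rule, the SALL4-delN12 share was 63.4% and the day 5 shares 73.8% and 57.9%. The last 2 alternatives, and all alternatives of the day 1 shares and of the shares of genes past the difference, were chosen after seeing the data. Promoters of 1 kb gave 20.4% and of 5 kb 30.5%. GATA letters were in 48.4% of whole peaks and in 8.28% of 200 bp at the ATAC-seq centre. The cause of the other shifts was not tested. The gap between the forms was 1.65 to 44.98 points at day 1 and, apart from the 50% overlap at -0.58 points, 12.7 to 27.2 points at day 5. The share of promoter genes past a log2 difference of 1 in either direction at day 5 was 24.3%, and 37.8% with a pseudocount of 0.1, 14.4% without the FPKM minimum and 32.6% with a minimum of 5, against 9.86%, 15.5%, 5.98% and 9.66% of all genes. No paired analysis was run. Each condition has 1 library or 1 merged library, and no replicate number is shared between the groups compared. The forms share the 4 days, which are conditions and not replicates, and a fit with day as a block was not run. With 1 library per condition no replicate could be left out. The shares depend on the number of peaks called per library, and a region without a peak may hold signal below the caller's threshold.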
